A study of Mus musculus with 16 samples.

Results

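The imprinted Dlk1-Dio3 cluster of distal mouse chromosome 12 was followed through 16 arrays by its 5 genes Dlk1, Meg3, Rian, Mirg and Dio3. The members were every probe whose gene name in the files was one of these, with Gtl2 accepted as the older name of Meg3, and 11 of the 41174 probes of the array qualified. RNA of every sample was labelled with a single dye and read on its own Agilent array. MEFs, which are mouse embryonic fibroblasts, came from C57BL/6 embryos and gave 1 array. The ES cell lines were B6ES, of C57BL/6 background, and TT2, of a C57BL/6 and CBA cross. The retrovirus-derived iPS line 20D17 came from a C57BL/6 and DBA cross and also gave 1 array. The human artificial chromosome iHAC1 carried 2 copies each of Klf4, c-Myc, Sox2 and Oct4, and 4 iHAC1-iPS clones (1-A3 and 1-B, with 1-C3 and 1-D6) were made with it. The vector iHAC2 added a p53 knockdown cassette and 2 further copies of Oct4, and gave 4 iHAC2-iPS clones. For each of these 1 subclone that had lost the vector was arrayed, so that 4 iHAC-free iPS lines pair with them, F-B1 with 2-B1, F-C5 with 2-C6, F-E4 with 2-E and F-N7 with 2-N. All 12 iHAC lines were of C57BL/6 background. Every line was a clone or an established line, so differences between samples of a group are differences between lines. The ES lines and the iHAC lines were kept on mitotically inactive ICR feeder fibroblasts, and the paper does not describe the culture of 20D17.

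At this cluster the protein-coding genes Dlk1, Rtl1 and Dio3 are expressed from the chromosome inherited from the father. The noncoding RNAs Meg3, Rian and Mirg are expressed from the chromosome inherited from the mother, and a methylated region between Dlk1 and Meg3 controls which copy is active. Rian and Mirg are host transcripts of small nucleolar RNAs and microRNAs. Loss of Meg3 and Rian expression is known as a mark of mouse iPS lines that contribute poorly to chimeras. The authors reported live chimeras from every iHAC-free iPS line arrayed here. In the RefSeq annotation of GRCm38.p6 the span of Mirg held 19 mature microRNAs, that of Rian 6 and that of Meg3 3. The array measured the host transcripts and not these microRNAs.

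Levels below are log2 of the background-subtracted signal minus the 75th percentile of the array. A level of one probe is compared only with the same probe on other arrays. Of the 11 member probes, 9 were well above background on all 16 arrays. The exceptions were a Meg3 probe seen on 14 arrays and a Rian probe seen on 8. Before the results, the lines were checked against markers of their labelled cell type. The iHAC1-iPS clones stood apart. The summed level of 8 pluripotency markers, on a linear scale relative to the 75th percentile, was 105 to 111 in them, against 443 to 573 in ES cells, 318 to 778 in iHAC2-iPS clones and 499 to 608 in iHAC-free iPS lines. Such a sum rests mostly on the brightest genes, and these differed between the groups. Nanog and Fgf4, also on the marker list, had no matched probe. Pou5f1 (Oct4) had log2 levels of 6.38 to 6.74 in iHAC1-iPS clones, above B6ES at 3.58 and TT2 at 4.05. Oct4 and Sox2 are carried by the iHAC vectors, and the paper reports more transgenic than endogenous expression in iHAC1-iPS clones. The part of vector transcript in the Pou5f1 and Sox2 signals was not tested. Dppa5a had -1.67 to 3.29 in these clones, below B6ES at 8.98 and TT2 at 8.41. Only 5 of the 8 markers were well above background in 1-A3 and 1-D6, and Dppa3, Esrrb and Zfp42 had the missing signal. Results over all iHAC lines are therefore also given without the iHAC1-iPS clones. Fibroblast markers were present on every array, with all 15 well above background. Their summed level was 414 in MEFs, 62.1 in B6ES, 174 in TT2, 316 in 20D17, 222 to 541 in iHAC1-iPS clones, 107.4 to 327 in iHAC2-iPS clones and 181 to 338 in iHAC-free iPS lines.

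The probe sequences are shown because the results below differ between probes of the same gene, and each is written 5′ to 3′ with its mm9 position from the files.

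Dlk1, chr12:110698667-110698726: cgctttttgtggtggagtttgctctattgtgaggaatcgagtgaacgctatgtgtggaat
Meg3 variant 1, chr12:110800898-110800957: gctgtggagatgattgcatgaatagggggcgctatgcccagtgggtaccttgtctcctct
Meg3 variant 3, chr12:110809678-110809737: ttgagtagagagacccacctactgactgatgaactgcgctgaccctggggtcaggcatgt
Rian, chr12:110898804-110898863: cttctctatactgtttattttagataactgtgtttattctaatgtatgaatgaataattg
Mirg, chr12:110979536-110979595: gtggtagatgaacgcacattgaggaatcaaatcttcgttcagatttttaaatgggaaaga
Dio3, chr12:111519117-111519176: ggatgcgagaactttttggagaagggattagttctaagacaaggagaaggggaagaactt

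Meg3 had 5 probes, which the files assigned to transcript variants 1 and 3. The other variant 3 probe was split by a splice junction and covered 8486 bases of the genome from chr12:110787974-110796459. Between both variant 3 probes the transcript advanced by 208 bases and the genome by 13219. The 3 variant 1 probes lay inside that stretch, and from the first to the last of them transcript and genome both advanced by 3726 bases. As annotated, most of the stretch that holds the variant 1 probes is thus spliced out of variant 3. The single probe sites were not checked against exons. The Meg3 levels are given for the brightest probe, of variant 3, and for the brightest variant 1 probe that lies 5509 bases into its transcript.

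The ES lines differed from each other at the maternally expressed genes. Mirg, the microRNA host, had a level of -3.84 in B6ES and -0.33 in TT2, a difference of 3.51 or 11.4-fold. Rian, the host of small nucleolar RNAs, had -0.87 in B6ES and 2.23 in TT2, which is 8.59-fold. Meg3, the noncoding RNA at the head of the maternal genes, had 1.50 in B6ES and 4.31 in TT2 by its variant 3 probe, and -2.83 and -0.04 by its variant 1 probe. In all, 8 of the 11 member probes were at least 4-fold higher in TT2, against 0.917% of 31395 probes. The other 3 were both Dlk1 probes, 2.15-fold and 2.16-fold higher in TT2, and the Dio3 probe, with a difference of -0.63. There was 1 array of each ES line, so this difference has no replicate check. The fibroblast markers moved in the same direction, with a median of 10.9% of the MEF level in B6ES and 26.1% in TT2. Genetic background, line and culture cannot be told apart here.

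**Figure D1:**
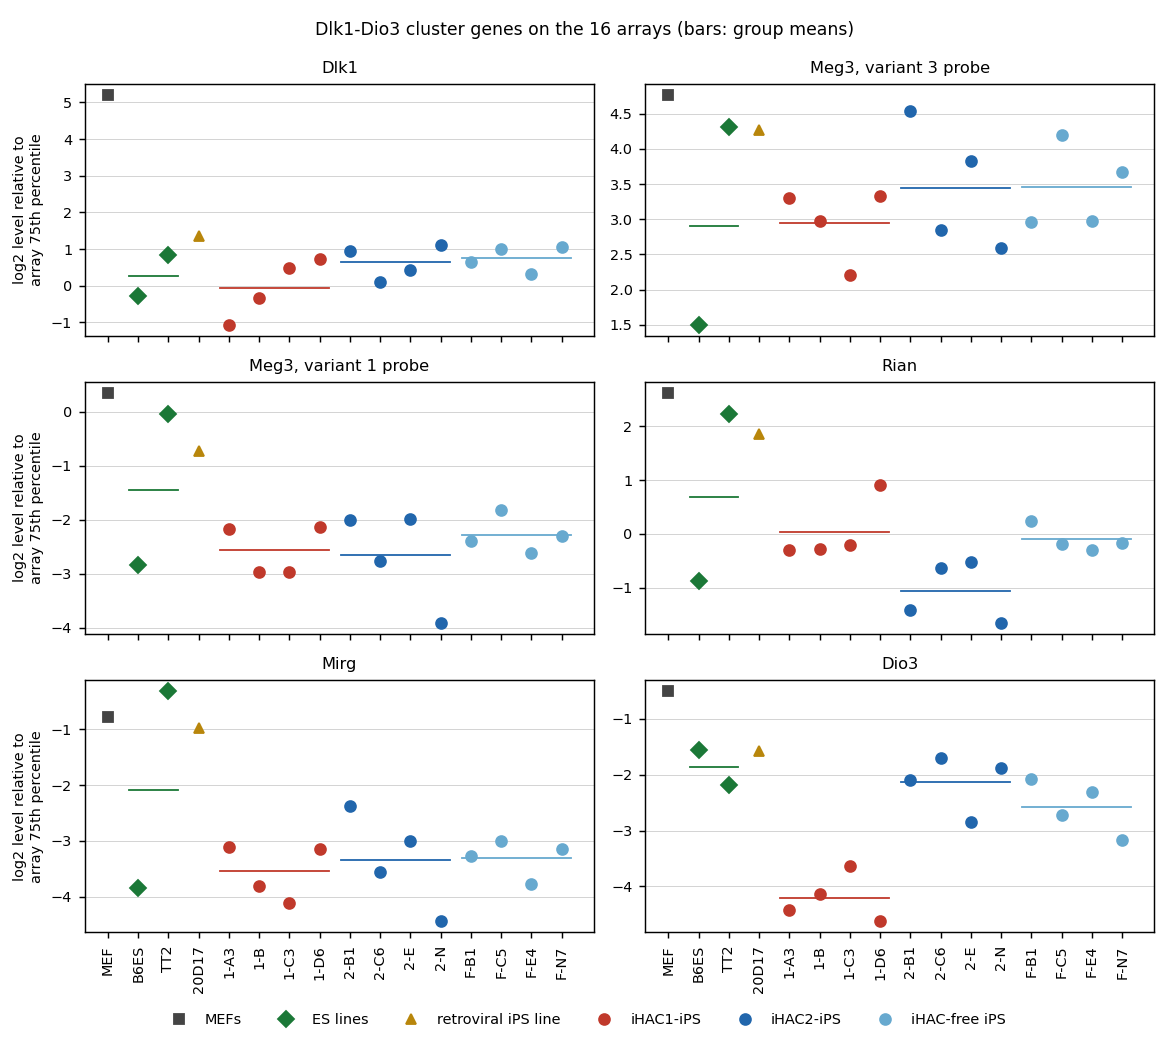
Log2 levels relative to the 75th percentile of the array for 6 cluster probes (1 panel each, with its own vertical axis) in the 16 lines on the horizontal axis; points are single arrays and bars are group means. TT2, 20D17 and MEFs sit above the 12 iHAC lines and B6ES for Rian, Mirg and the Meg3 variant 1 probe, Dlk1 is high in MEFs, at 5.20, and Dio3 is lowest in the 4 iHAC1-iPS clones.

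At Mirg the 12 iHAC lines lay near B6ES. Their levels ran from -4.43 in 2-N to -2.38 in 2-B1, with a median of -3.21, while MEFs had -0.78 and 20D17 had -0.97. Line by line, the iHAC lines differed from B6ES by -0.59 to 1.46, and from TT2 by -4.11 to -2.05. 2-B1, the nearest of them, differed from 20D17 by -1.41, more than the SD of 0.563 among the 12 iHAC lines. MEFs, TT2 and 20D17 spanned 0.64, close to that SD, and their order is not resolved.

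Rian gave a similar order by its brighter probe, which is meant wherever Rian is given without a probe. Its levels in the iHAC lines ran from -1.65 in 2-N to 0.91 in 1-D6, with a median of -0.29, against 2.61 in MEFs, 2.23 in TT2 and 1.85 in 20D17. 1-D6 stood above the next iHAC1-iPS clone at -0.21, and it was also the line with the highest share of fibroblast markers, at 73.6% of the MEF level. By this probe all 12 iHAC lines were below both TT2 and 20D17, and 10 of them were above B6ES. The dimmer Rian probe was well above background on 8 arrays only, not in B6ES, and did not give the same order, since F-C5 at -3.56 was above 20D17 at -4.20 and both were well above background.

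Meg3 depended on the probe. By the variant 1 probe the 12 iHAC lines ran from -3.91 in 2-N to -1.82 in F-C5, all below 20D17 at -0.72 and MEFs at 0.35. By the variant 3 probe they ran from 2.21 in 1-C3 to 4.53 in 2-B1, which was above both TT2 and 20D17 at 4.27. F-C5, at 4.20, differed from 20D17 by -0.08. By the first variant 1 probe in order of position, F-C5 at -1.67 was above 20D17 at -1.94. The iHAC lines and B6ES, 13 lines in all, were at least 2-fold below both TT2 and 20D17 at 3 member probes, namely Mirg and 2 variant 1 probes of Meg3, against 0.0701% of 31395 probes. Without the iHAC1-iPS clones Rian joined them, giving 4 member probes against 0.124%. This comparison was chosen after the levels were seen and has no test, and with normexp background correction no member probe met it. All 13 lines were of the same genetic background, while TT2 and 20D17 came from crosses. Genetic background, line and culture therefore cannot be told apart in it. The same holds where the levels of Mirg and Rian are compared with TT2 and 20D17 above.

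Within each array the probes of the cluster were then set against the variant 3 probe of Meg3, so that a change shared by all maternal transcripts cancels. Only the comparison of this difference between arrays carries information, since probes differ in brightness. For Mirg the difference was -7.20 to -6.24 in the 12 iHAC lines and -5.54 in MEFs, -5.34 in B6ES, -4.64 in TT2 and -5.24 in 20D17. The groups did not overlap, and their means differed by 1.49 or 2.80-fold. B6ES thus went with the other 3 lines here, although its levels were low for Meg3 and Mirg alike. For the variant 1 probe of Meg3 the difference was -6.52 to -5.17 in the iHAC lines and -5.00 to -4.34 in the other 4, again without overlap. A second variant 1 probe, at chr12:110799558-110799617, had -8.14 to -6.58 against -6.30 to -6.20.

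**Figure D2:**
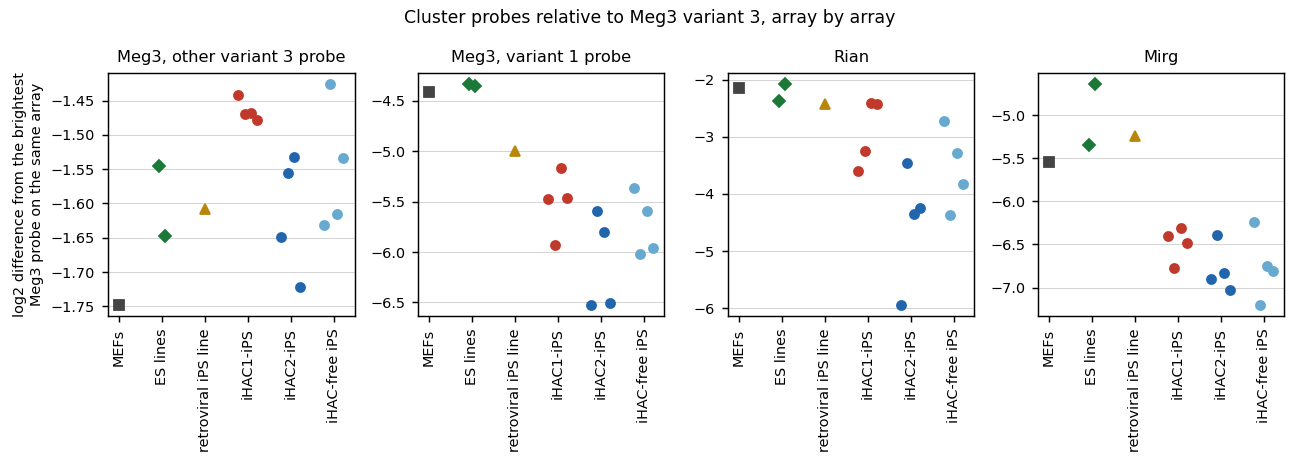
Log2 difference between 4 cluster probes (panels, each with its own vertical axis) and the brightest Meg3 probe on the same array, by group; each point is 1 array. For Mirg the 12 iHAC lines lie between -7.20 and -6.24, below all 4 other arrays, while the other variant 3 probe of Meg3 stays within -1.75 to -1.43 everywhere.

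Of 31394 probes, 3 were lower relative to the Meg3 variant 3 probe in all 12 iHAC lines than in all 4 other samples, which is 0.00956%, and these 3 were Mirg and the pair of Meg3 variant 1 probes just given. The variant 3 probe was higher in MEFs, at 4.76, than in every iHAC line. A probe with a constant level could therefore not meet this criterion. Such shares are low by construction and do not measure chance. Rian overlapped by a gap of -0.016, with -5.94 to -2.41 in the iHAC lines and -2.43 to -2.08 in the others. The other variant 3 probe stayed between -1.75 and -1.43 on all arrays, and the first variant 1 probe, at chr12:110797172-110797231, overlapped between the groups. Without the iHAC1-iPS clones 8 of 31394 probes, or 0.0255%, met the criterion, and Rian was then among the 4 cluster probes with a gap of 0.30. The iHAC lines left in this subset and the 4 other samples were scanned in different sessions, so session and group cannot be told apart there. The difference was noticed in these data and was not tested. With normexp and an offset of 50 the gap closed for all 3 probes. The background-subtracted signal of Mirg in the iHAC lines was only 24.1 to 84.5, and the offset lay within that range. With normexp and no offset the gap was 0.40 for Mirg, 0.022 for the variant 1 probe named second and -0.064 for the one named first.

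MEFs expressed all 5 genes, and the ES and iHAC lines were kept on feeder fibroblasts, while the culture of 20D17 is not described in the paper. Levels were therefore also expressed as a share of the MEF array and set beside the median share of the 15 fibroblast markers, which was 13.3% to 73.6% in the iHAC lines, 10.9% in B6ES, 26.1% in TT2 and 48.0% in 20D17. Single markers spread widely around this median, from 9.34% to 828% in 1-D6 and from 4.32% to 163% in 2-N. The counts of lines below or above the marker share thus rest on a rough reference. Mirg reached 7.93% to 33.0% of the MEF level in the iHAC lines and was below the marker share in 11 of 12, the exception being 2-E with 21.4% against 20.9%. In TT2 it reached 137% and in 20D17 87.3%, both above the marker share. In B6ES it reached 11.9%, close to the marker share of 10.9%. Rian reached 5.25% to 30.7% in the iHAC lines by its brighter probe, below the marker share in 12 of 12. By the dimmer probe it was below in 8 of 12, with F-C5 at 66.3% against 40.0% and 2-E at 37.4% against 20.9%, both well above background. Meg3 by its variant 3 probe reached at most 85.1%, in 2-B1, and was below the marker share in the 4 iHAC1-iPS clones and above it in the 8 other iHAC lines. By its brightest variant 1 probe Meg3 was below the marker share in 12 of 12 iHAC lines, and 20D17 had 47.7% against 48.0%. The other variant 1 probes did not give the same picture. In order of position they were below the marker share in 4 and 10 of 12 iHAC lines, and 20D17 had 67.1% and 70.5%. 1-D6 and 1-A3 had the most fibroblast marker signal of the iHAC lines, and Mirg stood at 19.3% and 20.0% of MEFs in them. The part of feeder RNA in these values was not tested, and the MEF array came from C57BL/6 embryos and not from the ICR feeders.

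**Figure D3:**
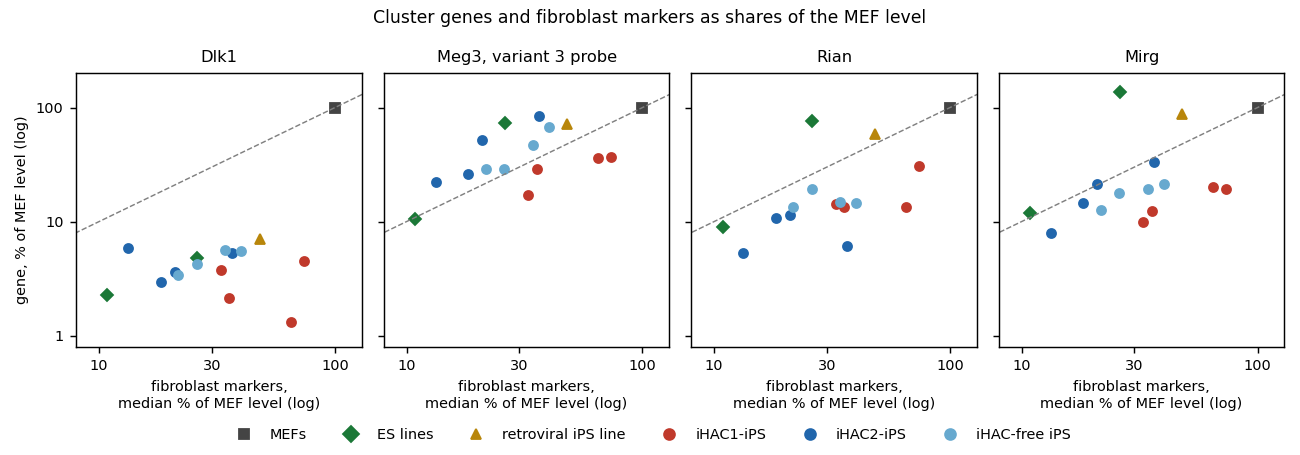
Level of 4 cluster genes as a percentage of the MEF level (vertical log axis) against the median percentage of 15 fibroblast markers (horizontal log axis); each point is 1 array and the dashed line marks equal shares. TT2 and 20D17 lie above the line for Meg3, Rian and Mirg, and the 12 iHAC lines lie below it for Dlk1 and for the brighter Rian probe, the one plotted.

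Dlk1, a transmembrane protein related to the Notch ligands and abundant in preadipocytes and fetal tissue, was high in MEFs alone. By its brighter probe the level was 5.20 in MEFs, -0.27 in B6ES, 0.83 in TT2 and 1.36 in 20D17. The iHAC lines ran from -1.06 in 1-A3 to 1.11 in 2-N, with a median of 0.57. They had 1.31% to 5.86% of the MEF level, below the fibroblast marker share in all 12. The groups overlapped with each other and with the ES lines, and the second Dlk1 probe gave 1.79% to 7.54%.

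Dio3, the deiodinase that inactivates thyroid hormone, separated the iHAC1-iPS clones. Its level was -4.42 in 1-A3, -4.13 in 1-B, -3.63 in 1-C3 and -4.62 in 1-D6. All were below B6ES at -1.56, TT2 at -2.18 and 20D17 at -1.58. The iHAC2-iPS clones had -2.09 in 2-B1, -1.69 in 2-C6, -2.84 in 2-E and -1.87 in 2-N. The iHAC-free iPS lines had -2.09 in F-B1, -2.72 in F-C5, -2.32 in F-E4 and -3.17 in F-N7. The iHAC1-iPS clones overlapped with no other sample, and the remaining lines overlapped with each other and with the ES lines. 1-A3 and 1-D6 were more than 4-fold under TT2, the lower ES line, with differences of -2.24 and -2.44, which 4.54% and 4.75% of 31395 probes also were in these clones, while 1-B and 1-C3 differed from it by -1.95 and -1.44. At the brightest probes of the other 4 genes no iPS line was 4-fold under the lower or over the higher ES line. At Meg3, Rian and Mirg the ES lines themselves lay 7.01-fold, 8.59-fold and 11.4-fold apart. A line far below TT2 could thus pass there, as the iHAC lines did at Mirg with differences of -4.11 to -2.05. The count therefore does not measure likeness to ES cells at these genes.

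One limma model of the 16 arrays gave the group differences, with a call at an adjusted p (Benjamini-Hochberg) under 0.05 and at least a 2-fold difference. Of the 11 member probes Dio3 alone was called in iHAC1-iPS clones against ES lines, with a log2 difference of -2.33, an SE of 0.385, a 95% interval of -3.17 to -1.49 and a limma adjusted p of 0.00182. Calls of lower signal made up 7.13% of 31423 probes in that comparison, and 1 of 11 member probes is near that share. On the slide that held 1-D6 and both ES lines, 1-D6 differed from their mean by -2.75, and with the slide as a block the limma adjusted p was 0.0192. Dio3 was again the member called in iHAC1-iPS against iHAC2-iPS clones, with a log2 difference of -2.08, an SE of 0.315 and a limma adjusted p of 0.000610. There 11.0% of the probes were called lower, and 1 of 11 member probes is again near the share. The iHAC1-iPS and iHAC2-iPS clones were scanned in different sessions, so session and group cannot be told apart. Under normexp background correction that difference was -0.96 with a limma adjusted p of 0.00118 and missed the 2-fold limit. Fewer cells of a type and less RNA per cell cannot be told apart in such bulk samples.

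No member probe was called against ES lines in the other groups, whose arrays shared no slide or scan session with the ES arrays, so that session and group cannot be told apart. With the slide as a random block Rian was called in iHAC2-iPS clones, with -1.84 and a limma adjusted p of 0.0495. Limma called 6.8% of all probes there in iHAC2-iPS clones and 0.363% in iHAC-free iPS lines. At an unadjusted p under 0.05 the limma fit had Rian alone, in the iHAC2-iPS clones. For Mirg the log2 difference from ES lines was -1.46 in iHAC1-iPS, -1.26 in iHAC2-iPS and -1.22 in iHAC-free iPS cells, with an SE of 0.775 each and 95% intervals whose lower ends were -3.14, -2.94 and -2.90 and whose upper ends were 0.23, 0.43 and 0.47. For Rian it was -0.65, -1.73 and -0.78, with an SE of 0.665, and the interval for iHAC2-iPS clones was -3.17 to -0.28, with a limma adjusted p of 0.102. For the Meg3 variant 1 probe it was -1.12, -1.22 and -0.84, with an SE of 0.683, and for the variant 3 probe 0.04, 0.54 and 0.54, with an SE of 0.722. For Dio3 it was -0.25 in iHAC2-iPS and -0.70 in iHAC-free iPS cells. Since the ES lines differed from each other, each comparison was repeated without either one.

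With TT2 as the only ES line, 5 member probes were called lower in the iHAC1-iPS clones, against 3.18% of all probes, and 2 in the iHAC2-iPS clones, against 0.563%. In the iHAC1-iPS clones these were Mirg with a difference of -3.21 and a limma adjusted p of 0.0151, Rian with -2.20 and 0.0290, Dio3 with -2.02 and 0.0365, and 2 variant 1 probes of Meg3. In the iHAC2-iPS clones they were Rian with -3.28 and a limma adjusted p of 0.0213, and Mirg with -3.01 and 0.0479. In the iHAC-free iPS lines Mirg had -2.97 and Rian -2.33 without a call. With B6ES as the only ES line Dio3 in the iHAC1-iPS clones was the single call, and Mirg differed from it by 0.30, 0.50 and 0.54 in the same order of groups. A lone ES line is assumed in these fits to vary as the other groups do. TT2 came from a cross, unlike B6ES and the iHAC lines, so genetic background and line cannot be told apart in the fits with TT2.

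Loss of iHAC2 did not go with a called change at any member probe, against 0.815% of probes called between clones and derivatives. At an unadjusted p under 0.05 the limma fit had 0 member probes. For Rian the clone minus derivative difference was -0.95 with an SE of 0.543 and a 95% interval of -2.13 to 0.23. It was -0.33 and -1.57 within the slides that held both groups. For Dio3 it was 0.45 with an interval of -0.24 to 1.13, for Mirg the interval was -1.42 to 1.34 and for the Meg3 variant 3 probe -1.28 to 1.28. Clone by clone, Rian by its brighter probe was lower in the iHAC2-iPS clone than in its own iHAC-free derivative in 4 of 4 pairs, with -1.65 for 2-B1, -0.44 for 2-C6, -0.22 for 2-E and -1.49 for 2-N. The dimmer Rian probe went in both directions, with 0.96, -3.30, 1.01 and -0.72 in the same order, and in no pair was it well above background on both arrays. Meg3 by its variant 3 probe went in both directions, with 1.56 for 2-B1 and 0.85 for 2-E, and with -1.36 for 2-C6 and -1.07 for 2-N. Mirg had the same signs as Meg3 in these 4 pairs, with 0.90, 0.77, -0.54 and -1.29 in the same order. Among iHAC2-iPS clones the SD was 0.896 for Meg3 and 0.872 for Mirg, and among iHAC-free iPS lines it was 0.595 and 0.334.

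**Figure D4:**
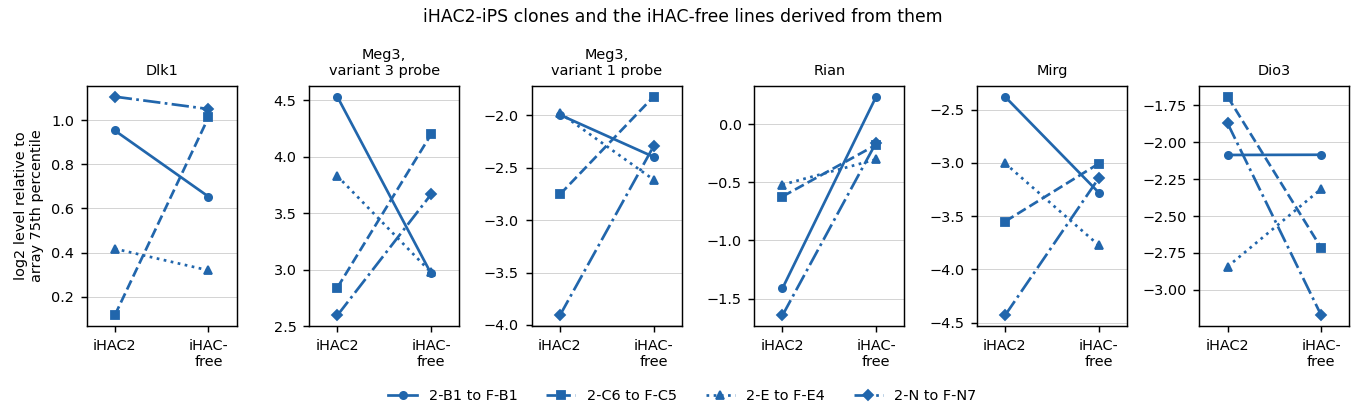
Log2 levels of 6 cluster probes (panels, each with its own vertical axis) in each iHAC2-iPS clone and in the iHAC-free iPS line derived from it; each line joins 1 clone with its derivative. By its brighter probe, the one plotted, Rian is higher in the derivative in all 4 pairs, with clone minus derivative differences of -1.65 to -0.22, and the Meg3 and Mirg lines cross.

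Around the members the files placed 6 other probes between Dlk1 and Dio3, and 3 of them passed the background limit on 1 array or more. These were an unnamed transcript on 16 arrays with levels of 3.08 to 5.02, a cDNA on 2 arrays and Dio3os, the transcript antisense to Dio3, on 1 array. No probe was matched to Rtl1, the paternally expressed retrotransposon-derived gene, or to Begain, which lies beside Dlk1. Wdr25, a flanking gene, had -1.47 in iHAC1-iPS, -1.23 in iHAC2-iPS, -1.32 in iHAC-free iPS cells and -1.84 in ES lines on average, with no call. Of 21 tested genes in and beside the cluster, 4 were higher and 1 lower in iHAC1-iPS clones against ES lines, where 14.3% of all probes were called, none passed in the comparisons of the other groups with ES lines or with each other, and 4 were higher and 1 lower in iHAC1-iPS against iHAC2-iPS clones. In the last comparison 20.0% of all probes were called. Eml1, a microtubule-associated protein gene, was higher there by 1.97, Slc25a47, a mitochondrial carrier gene, by 1.62 and Bcl11b, a transcription factor gene, by 1.41, and Mok, a kinase gene, had a difference of -1.55. Without 2-N the difference of Bcl11b was 0.99, under the 2-fold limit.

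Of 18 tested genes that set or keep imprints, 8 were called lower in iHAC1-iPS clones against ES lines and none higher. The median difference of the list was -1.13 against 0.04 over all probes, of which 14.3% were called in either direction. Against iHAC2-iPS clones 9 were lower and none higher, with a median of -0.85 against -0.03. In that comparison the difference was -6.77 for Dnmt3l, the cofactor of the de novo DNA methyltransferases, and -1.84 for Dnmt3a. Dppa3, the maternal factor that protects imprints in the zygote, was called lower and was well above background in 1 of 4 iHAC1-iPS clones, so no size is given. Dnmt1, the maintenance methyltransferase, had 0.28 against ES lines, Ezh2 0.18 and Zfp445 0.07, without a call. Dnmt3b had -2.53 against iHAC2-iPS clones, a call that was lost without 1-A3, 1-D6, 2-B1, 2-C6 or 2-E. These genes are also highly expressed in pluripotent cells, and 8 pluripotency markers, Dppa3 among them, moved with them, with 6 called lower and 1 higher against iHAC2-iPS clones. In the iHAC2-iPS clones Aff3 and Eed were called lower than in ES lines, with -1.34 and -1.15, and neither call held without B6ES or without TT2, nor that of Eed without 2-B1 or 2-E. No gene of the list was called in the iHAC-free iPS lines against ES lines.

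Of 31 tested imprinted genes of other chromosome regions, 5 were higher and 2 lower in iHAC1-iPS clones against ES lines, 1 was higher in iHAC2-iPS clones and none was called in iHAC-free iPS lines, beside 14.3%, 6.8% and 0.363% of all probes. The 7 calls of the first comparison were all lost without B6ES and with the slide as a block. Between iHAC1-iPS and iHAC2-iPS clones 5 were higher and 4 lower, beside 20.0% of all probes. Nap1l5 was at least 13.2-fold higher in the iHAC1-iPS clones, since it was not well above background in any iHAC2-iPS clone. Peg12 was higher by 3.42, and Slc22a18, a transporter gene, and Phlda2, a growth-restraining placental gene, had -3.52 and -3.40. Slc22a18 was higher in iHAC2-iPS clones than in ES lines by 2.56, a call that was lost without B6ES or without TT2.

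Dlk1 is a relative of the Notch ligands. Of 12 Notch pathway genes tested, 1 was higher and 1 lower in iHAC1-iPS clones against ES lines, 2 were higher in iHAC2-iPS clones and none passed in iHAC-free iPS lines, beside the same shares of all probes. The 2 of 12 in the first comparison are near its share of 14.3%. Against iHAC2-iPS clones 3 were higher in iHAC1-iPS clones, beside 20.0% of all probes, among them the target genes Hey1, by 1.79, and Hes1, by 1.26. The ligand gene Dll3 was lower in iHAC1-iPS clones than in ES lines, with -2.09, a call lost without B6ES, and the receptor gene Notch4 was higher in iHAC2-iPS clones by 1.84, a call lost without B6ES, TT2, 2-C6, 2-E or 2-N.

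Among the genes of thyroid hormone handling, on which Dio3 acts, 3 of 8 tested were higher and 1 lower in iHAC1-iPS clones against ES lines, beside 14.3% of all probes. Thra, a thyroid hormone receptor gene, was higher by 1.66, and its partner Rxra was higher by 1.35, the latter lost without B6ES or with the slide as a block. Klf9, a thyroid hormone target, had -1.90. Thrb was at least 1.86-fold higher, measured in 2 of 4 clones and not well above background in either ES line, and this call was lost without B6ES, with the slide as a block and under normexp. Against iHAC2-iPS clones 2 were higher and 1 lower, beside 20.0% of all probes. Thra was also higher in iHAC2-iPS clones, 2.14-fold against ES lines, a call lost without B6ES or without TT2, and nothing was called in the iHAC-free iPS lines.

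The genes most like each member were taken over the 15 lines without MEFs, among 26757 probes well above background on at least 4 arrays. These correlations are a description, since the lines share groups, slides and feeder cells, and r over all 16 arrays is given after each. For Meg3, by its variant 3 probe, Ghr, the growth hormone receptor gene, was first with r = 0.90 and 0.91, and Ak5 followed after an unnamed transcript with 0.86 and 0.78. For Rian, Nipal1 with 0.89 and 0.91 and Lpp with 0.88 and 0.92 were among the 5 most alike. For Mirg they were Pkd2, a cation channel gene, with 0.87 and 0.77, and Dusp16, a phosphatase gene, with 0.86 and 0.69. For Dlk1 it was Hbegf, a growth factor gene, with 0.87 and 0.77. For Dio3 it was Ovol1, a zinc finger gene, with 0.96 and 0.68, and Slc4a5, with 0.93 and 0.61. Probes of the members were left out of this ranking.

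The maternal transcripts moved together between the ES lines, so the RefSeq sequence around the first Meg3 start site is shown, from 250 bases before to 50 after it, on the plus strand of GRCm38.p6 at chr12:109540746-109541045. Capitals mark TGACGTCA, the cAMP response element, which reads the same on both strands, and TATATAAA, a TATA box.

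Meg3 promoter: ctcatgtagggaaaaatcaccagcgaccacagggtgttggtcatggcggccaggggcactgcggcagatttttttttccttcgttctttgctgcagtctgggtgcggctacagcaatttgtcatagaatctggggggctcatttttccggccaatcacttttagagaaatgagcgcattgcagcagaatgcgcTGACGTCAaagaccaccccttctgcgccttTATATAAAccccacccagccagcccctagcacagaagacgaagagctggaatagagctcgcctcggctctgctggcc

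TGACGTCA began at base 194 and TATATAAA at base 224, counted from 1 at the 5′ end. Searched on both strands, the first was found in 1.79% and the second in 1.40% of 32851 RefSeq promoters of this length. The window held 13 CpG dinucleotides, against a median of 7 over all promoters and 9 at Dlk1, 0 at Rian, 10 at Mirg and 25 at Dio3. Neither motif was in the windows of the other 4 genes. A match of letters is a description of the sequence, and the arrays did not measure methylation or binding there.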

How the data were processed

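RNA of 16 samples was hybridized by the authors to 1-colour Agilent arrays and read with Feature Extraction (versions 10.7.1.1 and 10.7.3.1 in 2 scan sessions). Spot intensity was taken from the scanner output the authors deposited, whose processed signal is background-subtracted and not scaled between arrays. The deposited value table holds the authors' log2 values, centred per probe after normalization in GeneSpring GX, and was used as an alternative. Set against the scanner values it had slopes of 1.0 to 1.0001, and its column medians were -0.325 to 0.279.

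Control and outlier spots were left out, spots of a probe were averaged, and log2 of the processed signal minus the 75th percentile of each array was analysed. Between 54.2% and 65.8% of spots were well above background per array, no spot was saturated, and the number of arrays limits precision. Probes well above background on at least 1 array were tested (31423), of which 31395 had a value on every array. Gene names are those of the files, updated through RefSeq accessions for 26795 probes, and probe positions are the mm9 ones of the scanner output. Groups were compared with limma 3.58.1 (lmFit, eBayes, R 4.3.3) and Benjamini-Hochberg adjustment, and other steps used Python 3.11.15 with pandas 2.3.3, numpy 2.4.6 and matplotlib 3.10.9. Simulated data were used to test the limma scripts. Groups came from the sample labels, and lines of a group are clones or cell lines, so p-values measure the spread between these lines.

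The members and gene lists were chosen with earlier results of these data known. Named were all member probes, probes between Dlk1 and Dio3, Begain, Wdr25, Rtl1, at most 4 called genes per list with the largest differences, and for each member the 5 most correlated genes, of which some are named and 1 is not reported here. Aff3, Eed, Dnmt1, Ezh2 and Zfp445 were named after their values were seen. For each list gene the probe with the highest mean was used. iHAC-free lines are paired with their clones of origin by cell line. In deviations from group means the 4 pairs correlated at -0.219 to 0.0800, other combinations at -0.105 to 0.216. Alternatives were normexp (offset 50), quantile normalization, the value table, both filters, the slide or clone of origin as a block, only the compared groups, and leaving out each array.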

Additional observations from a re-analysis of the deposited data

Results flagged for a closer look

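The brighter Rian probe had 1 value far from the others of its group. Its level was 0.91 in 1-D6, against -0.30 in 1-A3, -0.28 in 1-B and -0.21 in 1-C3, so that the gap took up 0.918 of the range of the 4 iHAC1-iPS clones. This was the single such value among 33 groups of 4 lines and probes examined, of which chance would give about 1 in 20. 1-D6 was hybridized on the slide of the ES lines and 20D17, and the 3 other iHAC1-iPS clones shared the slide of the MEFs. The part of the slide was not tested.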

How the results depend on the processing

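The call of Dio3 in iHAC1-iPS clones against ES lines held under every alternative run, with differences of -2.65 to -2.02 when 1 array was left out. The count of called member probes in that comparison was 1 to 5 when 1 array was left out, with 5 without B6ES. In iHAC2-iPS clones against ES lines it was 0 to 2, with 2 without B6ES, and 1 with the slide as a block, where Rian differed by -1.84 with a limma adjusted p of 0.0495. Between iHAC1-iPS and iHAC2-iPS clones it was 0 under normexp. With clone of origin as a replicate block, the paired fit of iHAC2-iPS clones against iHAC-free iPS lines called 0 member probes, as without it, and 139 of all probes against 256. The number of lines with Dio3 4-fold under the lower ES line was 2 and became 0 under normexp, 0 at 8-fold and 4 at 2-fold. Member probes below both TT2 and 20D17 numbered 3, and 0 under normexp. The gap in the within-array difference was -0.51 for Mirg, -0.51 for the variant 1 probe of Meg3 and -0.95 for the second one under normexp, and 0.40 for Mirg and -0.064 for the variant 1 probe under normexp without an offset. All of these within-array alternatives were chosen after the data were seen.

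At the probes given here, signs of uncalled differences from ES lines turned with the ES line used, with exceptions. Rian in iHAC2-iPS clones and Dio3 in iHAC-free iPS lines kept their sign, the latter at -1.02 to -0.39. Leaving out 1 array gave -1.36 to 1.45 for the Meg3 variant 3 probe, -2.51 to 0.28 for the variant 1 probe, -2.20 to 0.90 for Rian and -3.21 to 0.30 for Mirg in iHAC1-iPS clones. It gave -0.86 to 1.95, -2.62 to 0.17, -3.28 to -0.18 and -3.01 to 0.50 in iHAC2-iPS clones, with -0.57 to 0.061 for Dio3, and -0.86 to 1.95, -2.24 to 0.55, -2.33 to 0.77 and -2.97 to 0.54 in iHAC-free iPS lines. Rian in iHAC1-iPS clones was 0.23 with the slide as a block. Counts of all called probes moved by more than 1.5 times, between 1867 and 4718 for iHAC1-iPS against ES lines, 19 and 4485 for iHAC2-iPS, 14 and 697 for iHAC-free iPS, 40 and 982 for clones against derivatives, and 2617 and 7500 for iHAC1-iPS against iHAC2-iPS cells. Normexp moved the median of all probes by -0.14 for iHAC-free iPS against ES lines and 0.15 for clones against derivatives. Under normexp TT2 exceeded B6ES by 2.25 for Mirg and 2.06 for the Meg3 variant 1 probe. Signals near background limit the dim Meg3, Rian and Mirg probes, and also Dio3 in the iHAC lines where its signal was low. The cause of these shifts was not tested.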
